A study of Mus musculus with 24 samples.

Results

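The 10 genes described here form the aldosterone-sensitive sodium transport system of the distal nephron, and they were listed by name, with earlier results of these data known but no measured value in the rule. They are the epithelial sodium channel (ENaC) subunit genes Scnn1a, Scnn1b and Scnn1g, the mineralocorticoid receptor gene Nr3c2 with the steroid-converting enzyme gene Hsd11b2, the kinase gene Sgk1 with the ubiquitin ligase gene Nedd4l, and the thiazide-sensitive sodium chloride cotransporter (NCC) gene Slc12a3 with the kinase genes Wnk1 and Wnk4. All 10 of them passed the filter on low counts that left 12780 of the 30116 genes with a count for testing. On GRCm38 the plus-strand genes Scnn1g (chr7:121734479-121768475) and Scnn1b (chr7:121865038-121918514) are near neighbours. Slc12a3 (chr8:94329201-94366214), Hsd11b2 (chr8:105518755-105523988) and Nr3c2 (chr8:76899442-77245012) share chromosome 8, Scnn1a (chr6:125320659-125344943) and the minus-strand gene Wnk1 (chr6:119923969-120038672) share chromosome 6, Wnk4 is at chr11:101260567-101277409, and Nedd4l is on chromosome 18.

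Kidney RNA came from male wild-type C57BL/6J mice, young adults at surgery, and no transgene or drug separates the groups. The sources used here do not state which part of a kidney was taken for RNA. In the MI groups the left anterior descending coronary artery (LAD) was ligated permanently and not reperfused, and the mice were killed 5d (8 kidneys used) or 28d (6 kidneys used) after surgery. Sham mice (8 kidneys) had the same operation without ligation, were killed at 5d, and served as controls for both times, so that the 28d kidneys differ from them in the time after surgery as well as in the infarct. Hemodynamic measurements preceded organ removal.

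Aldosterone enters principal cells of the connecting tubule and collecting duct and cells of the late distal convoluted tubule, where it binds the mineralocorticoid receptor and raises transcription of target genes, with Sgk1 among the earliest. SGK1 phosphorylates NEDD4L and keeps it from tagging ENaC for removal from the apical membrane, while HSD11B2 inactivates glucocorticoids that would otherwise occupy the same receptor. In the distal convoluted tubule WNK kinases act through SPAK to phosphorylate and activate NCC. Much of this control is exerted on proteins, and the data here are mRNA levels alone.

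Levels are given as CPM, the reads at the 3′ end of a gene per 1000000 reads of its kidney, with the totals scaled by TMM. Total counts per kidney were between 2280618 and 3786275. The tissue carried the markers of its distal segments. The summed level of 6 principal cell markers was 459 to 1466 CPM over the 22 kidneys. Aqp2 made up most of it, at 299 to 1209 CPM, highest in 5d replicate 7. That of 4 distal convoluted tubule markers was 603 to 950 CPM, with medians of 692, 771 and 792 CPM in the sham, 5d and 28d groups. Most of it was Egf, with group means of 562, 648 and 634 CPM. Tmem52b had medians of 91.6, 100 and 97.9 CPM in these groups. Pvalb had medians of 31.6, 27.5 and 34.6 CPM, and Trpm6 of 11.2, 9.81 and 10.9 CPM, so that these markers were not higher at 5d. The summed level of 4 connecting tubule markers had medians of 3445, 3393 and 3856 CPM. The summed level of medulla markers was 219 to 321, 173 to 368 and 208 to 302 CPM in these groups. Adrenal cortex genes stood apart in 3 kidneys, sham replicates 2 and 6 and 5d replicate 5, which is why values without these kidneys are given below. The summed level of 7 adrenal cortex markers reached 798 CPM in sham kidneys and 81.1 CPM at 5d post-MI, against group medians of 7.89 and 8.76 CPM, and the aldosterone synthase gene Cyp11b2 was at 0 counts in all kidneys.

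No gene of the system passed the adjusted threshold in either comparison with sham or between the times. By edgeR's quasi-likelihood test with Benjamini-Hochberg adjustment over all genes tested, 0 of 10 genes were called at 5d post-MI, where 0.0704% of all tested genes were called, 0 of 10 at 28d post-MI, where 0.0235% were called, and 0 of 10 between 28d and 5d, where 0.415% were called. DESeq2 and limma's voom also called 0 of 10 in each of these comparisons. At an unadjusted p under 0.05, 2 of 10 genes (Nedd4l and Nr3c2) were higher at 5d post-MI, 1 of 10 (Wnk4) was higher at 28d post-MI, and 1 of 10 (Nedd4l) was lower at 28d than at 5d. Among all tested genes 7.9%, 8.68% and 9.05% had such a p in these comparisons, and in the direction counted 3.92%, 4.45% and 4.01%. A share of 1 in 10 genes is near this background.

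**Figure D1:**
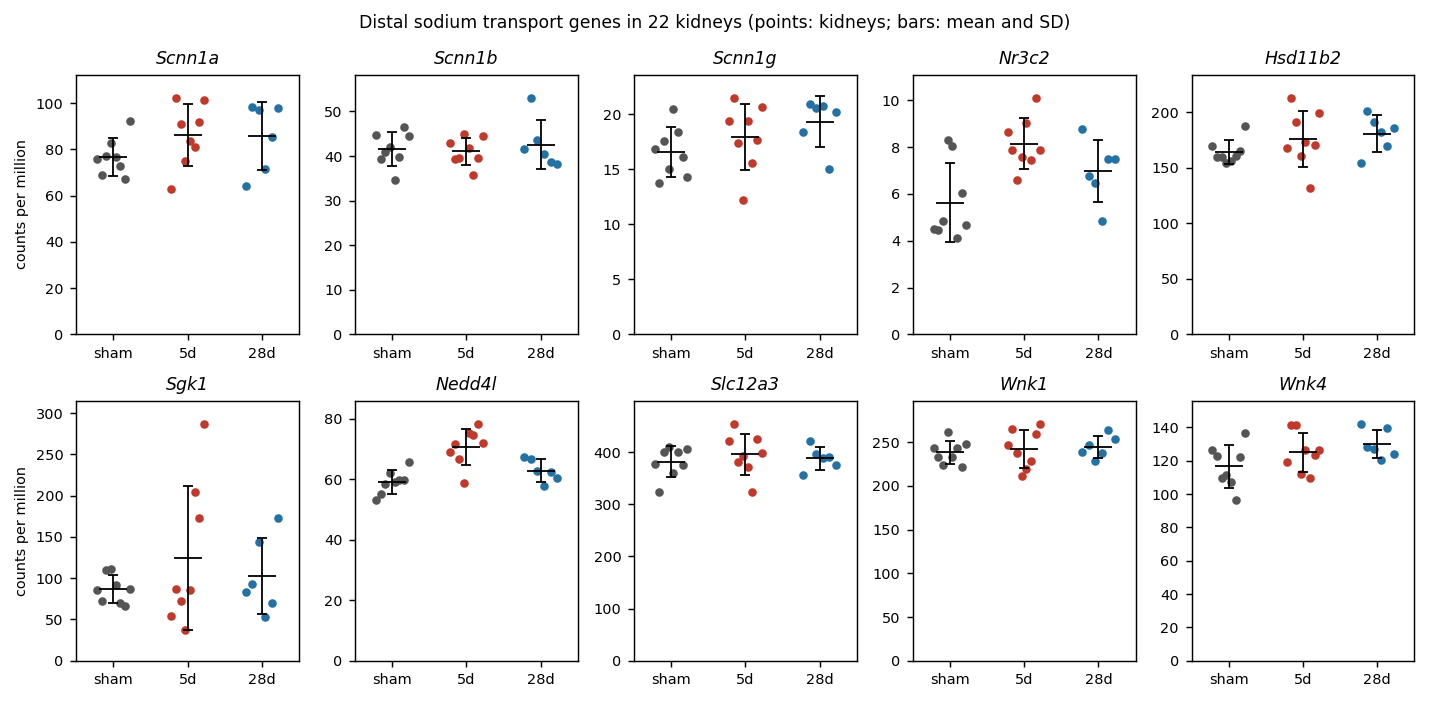
CPM (y axis, from 0) of each of the 10 genes in each kidney (points) of the sham (n = 8), 5d post-MI (n = 8) and 28d post-MI (n = 6) groups (x axis), with the group mean and SD as bars. The Nedd4l panel shows 7 of the 8 kidneys at 5d post-MI above every sham kidney, and the Sgk1 panel shows 5d kidneys on both sides of the sham range, between 37.3 and 286 CPM.

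The lowest p of the 10 genes at 5d post-MI was that of Nedd4l, whose product NEDD4L binds the tails of ENaC subunits and ubiquitinates them. Its level was lowest at 53.1, median 59.4 and highest at 65.8 CPM in sham kidneys (n = 8), from counts of 133 to 239 per kidney. At 5d post-MI it was lowest at 58.9, median 71.8 and highest at 78.2 CPM (n = 8). Only replicate 5 of the 5d group, one of the kidneys with adrenal cortex genes, lay within the sham range, and the other 7 kidneys lay above it. At 28d post-MI the level was 57.9 to 67.5 CPM with a median of 62.5 CPM (n = 6), and 4 of these 6 kidneys lay within the sham range.

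The fitted log2 fold change of Nedd4l at 5d post-MI was 0.25 (SE 0.062, 95% interval 0.13 to 0.38, a fold of 1.19), with an adjusted p = 0.12 by edgeR. Over 37 alternatives this log2 fold change stayed between 0.23 and 0.29 and its adjusted p between 0.0386 and 0.329, and the adjusted p was under 0.05 in 1 of them, the fit without 5d replicate 5 (log2 fold change 0.29, adjusted p = 0.0386 by edgeR). With all 3 kidneys that carry adrenal cortex genes left out it was 0.28, with an adjusted p = 0.187 by edgeR. With the score of the distal markers as a covariate it was 0.26. Between 28d and 5d post-MI Nedd4l differed by a log2 fold change of -0.17 (SE 0.068, 95% interval -0.31 to -0.03), adjusted p = 0.411 by edgeR, and at 28d against sham by 0.09 (95% interval -0.05 to 0.22). The red blood cell genes were also higher in every 5d kidney than in every sham kidney (summed level 4931 to 18958 against 2185 to 4084 CPM), and their part in the Nedd4l difference was not tested. In whole tissue, more cells that contain a transcript and more of it per cell cannot be told apart.

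Nr3c2, the mineralocorticoid receptor gene, had the lowest counts of the system, 11 to 31 in each sham kidney, so that its values carry a large counting error. Its level in sham kidneys was lowest at 4.13, median 4.75 and highest at 8.3 CPM. At 5d post-MI it was lowest at 6.6, median 7.87 and highest at 10.1 CPM, and at 28d post-MI lowest at 4.82, median 7.11 and highest at 8.79 CPM. Sham replicates 4 and 5 reached 8.3 and 8.07 CPM and overlapped the MI kidneys, while 3 of the 8 kidneys at 5d lay above every sham kidney. The log2 fold change at 5d post-MI was 0.50 (SE 0.168, 95% interval 0.16 to 0.84), adjusted p = 0.425 by edgeR, and at 28d post-MI 0.29 (95% interval -0.09 to 0.67), adjusted p = 0.721. Without the 3 kidneys with adrenal cortex genes the 5d value was 0.42, with an adjusted p = 0.697 by edgeR.

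Hsd11b2, the gene of the enzyme that protects the receptor from glucocorticoids, was at 154 to 188 CPM in sham kidneys, with a median of 159.9 CPM. Its range was wider on both sides at 5d post-MI, 132 to 213 CPM with a median of 172 CPM, and at 28d it was 154 to 201 CPM with a median of 184 CPM. The log2 fold changes against sham were 0.10 (95% interval -0.04 to 0.24) at 5d and 0.14 (95% interval -0.02 to 0.29) at 28d, and the groups overlapped.

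None of the 3 ENaC subunit genes passed the test in any comparison, and their groups overlapped. Scnn1a, which encodes the α subunit, was at 67.4 to 92.5 CPM in sham kidneys, 63.1 to 102 CPM at 5d and 64.3 to 98.5 CPM at 28d post-MI, with medians of 76.3, 87.3 and 91.3 CPM. Its log2 fold changes were 0.16 at both times (95% interval -0.04 to 0.36 at 5d and -0.06 to 0.38 at 28d). Scnn1b, the β subunit gene, had medians of 41.4, 40.7 and 41.0 CPM in the sham, 5d and 28d groups, and its 95% intervals limit a change to between 0.884 and 1.09-fold at 5d and between 0.908 and 1.15-fold at 28d. Cog7 on the other strand overlaps the annotated span of Scnn1b (2568 counts against 2727 over all kidneys), and the strand setting of the counting is not given in the sources used here. Scnn1g, the γ subunit gene, had medians of 16.5, 18.5 and 20.4 CPM, and 3 of the 6 kidneys at 28d lay above every sham kidney. Its log2 fold change at 28d was 0.23 (95% interval -0.02 to 0.48), adjusted p = 0.614 by edgeR.

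Slc12a3, the NCC gene that marks the distal convoluted tubule, had the smallest SD within groups of the transporter and channel genes (0.12 on the log2 scale). Its level was 324 to 410 CPM in sham kidneys, 323 to 453 CPM at 5d and 357 to 422 CPM at 28d post-MI, with medians of 389, 395 and 390 CPM. The 95% intervals limit a change of Slc12a3 to between 0.959 and 1.12-fold at 5d and between 0.935 and 1.1-fold at 28d post-MI. Wnk1 had medians of 238, 242 and 243 CPM, and its 95% interval at 28d ran from 0.948 to 1.11-fold. Wnk1 has 15 annotated protein-coding transcripts from 13 starts, the long form and the kidney-specific short form among its products, and these counts of 3′ ends give 1 value for all of them. Wnk4, the kinase gene in which mutations cause familial hyperkalemic hypertension, was at 96.2 to 137 CPM in sham kidneys (median 117 CPM), 110 to 141 CPM at 5d (median 125 CPM) and 121 to 142 CPM at 28d (median 127 CPM). All 6 kidneys at 28d were above the sham mean of 117 CPM, and 2 of the 6 were above every sham kidney. Its log2 fold change at 28d was 0.15 (SE 0.069, 95% interval 0.01 to 0.29), adjusted p = 0.53 by edgeR.

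**Figure D2:**
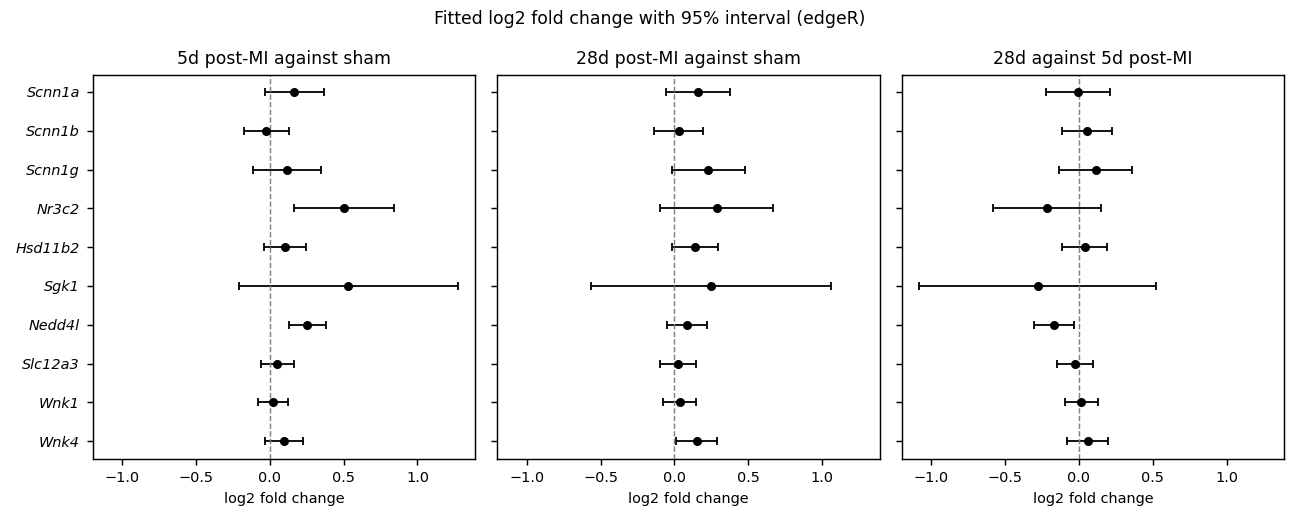
Fitted log2 fold change (x axis) of each of the 10 genes (y axis) with its 95% interval from edgeR, for each time post-MI relative to sham kidneys (left and middle) and for 28d relative to 5d (right). The intervals of Nedd4l and Nr3c2 at 5d, of Wnk4 at 28d and of Nedd4l between the times leave out 0 before adjustment, and the interval of Sgk1 is the widest of the 10 in each panel.

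Of the 10 log2 fold changes, 9 were above 0 at 5d post-MI and 10 at 28d, with medians of 0.11 and 0.15. Over all tested genes 50.1% and 49.6% were above 0, with medians of 0.00 in both. The shift was not limited to the 10 genes. Of the 46 tested genes of the wider pathway described below, 69.6% and 71.7% were above 0, with medians of 0.04 and 0.07. These comparisons use the same sham kidneys, so that the signs at 5d and 28d are not independent of each other. Nor are the signs of the 10 genes, which were measured in the same kidneys and mostly correlated above 0 (median r 0.22). With library size alone as the scaling, 7 of 10 were above 0 at 28d, and the median of all tested genes was then -0.04. Without 28d replicate 2, 8 of 10 were above 0 at 28d. With the distal, adrenal cortex or adipocyte score as a covariate the 28d median was 0.08, 0.09 or 0.08. The 5d median was then 0.14, 0.09 or 0.09. The distal score is a mean of log2 CPM over markers that include Avpr2, at 0 to 2 counts in a kidney. Slc8a1 and Fxyd4 of the wider pathway are also among its markers. Between 28d and 5d post-MI 5 of 10 were above 0, with a median of 0.00.

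Sgk1 differed from the other genes in its spread between kidneys. Its product is the serum- and glucocorticoid-regulated kinase, and its transcription answers to glucocorticoids as well as to aldosterone. In sham kidneys its level was lowest at 66.0, median 86.5 and highest at 111 CPM. At 5d post-MI it was lowest at 37.3, median 86.1 and highest at 286 CPM, and at 28d lowest at 53.4, median 88.4 and highest at 173 CPM. The medians of the 3 groups were thus within a few CPM of each other. Replicates 7, 8 and 9 of the 5d group (205, 173 and 286 CPM) and replicates 3 and 7 of the 28d group (144 and 173 CPM) lay above every sham kidney, while replicates 1 and 5 of the 5d group (53.7 and 37.3 CPM) and replicate 4 of the 28d group (53.4 CPM) lay below every sham kidney.

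For Sgk1 the fitted log2 fold change at 5d post-MI was 0.53 with a 95% interval of -0.21 to 1.27, adjusted p = 0.777 by edgeR, and at 28d post-MI 0.25 with an interval of -0.56 to 1.06, adjusted p = 0.912. Without 5d replicate 9 the 5d value was 0.23, and without 28d replicate 7 the 28d value was 0.03. limma's voom, which averages logarithms, gave 0.25 at 5d, and the fit with the replicate number as a block gave 0.056. Only the 5d group has a replicate 9, so that this kidney does not enter the comparison in the block fit. Over 37 alternatives the log2 fold change of Sgk1 ran from 0.056 to 0.74 at 5d and from 0.03 to 0.55 at 28d, and it was called in 0 of them. The intervals do not limit a change of the mean to less than 2.42-fold at 5d and 2.09-fold at 28d.

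The SD of log2 CPM within groups was 0.71 for Sgk1, above that of 99.0% of all tested genes, while the counting error of its reads alone would give about 0.09. By group this SD was 0.28 in sham kidneys, 1.001 at 5d and 0.63 at 28d post-MI. The highest kidney had 7.67 times the level of the lowest. For the other 9 genes this ratio was between 1.28 (Wnk1) and 2.44 (Nr3c2). Wnk1 and Nedd4l had SDs of 0.10 and 0.11, smaller than those of all but 5.93% and 7.25% of tested genes, and for Nedd4l the counting error of 0.11 is as large as the SD observed. Nr3c2 (0.28 against a counting error of 0.33), Scnn1g (0.21 against 0.20) and Scnn1b (0.14 against 0.13) were also at the level that counting alone gives. Scnn1a (0.21 against 0.09) and Hsd11b2 (0.16 against 0.06) varied more than their counting error.

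**Figure D3:**
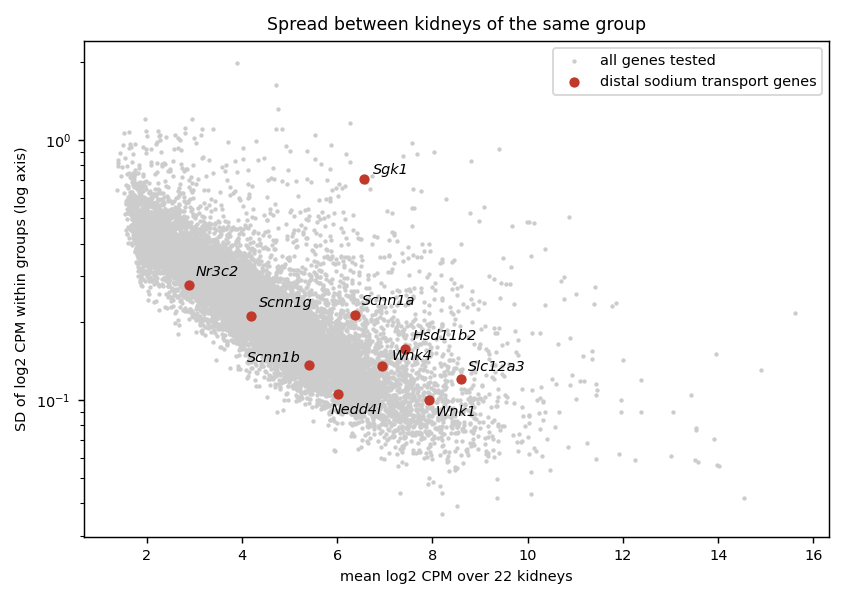
SD of log2 CPM between kidneys of the same group (y axis, log scale) against the mean log2 CPM over 22 kidneys (x axis), for all tested genes (grey) and the 10 genes (red). Sgk1 lies at an SD of 0.71, and the other 9 genes lie between 0.10 and 0.28.

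The Sgk1 gene lies at chr10:21882184-21999903 on the plus strand of GRCm38, and GENCODE M21 gives it 9 protein-coding transcripts from 7 starts, of which 5 end within 50 bases of the last annotated end, so that 3′ reads do not tell the starts apart. RefSeq windows from 250 bases before to 50 bases after a start were at hand for 7 of the 10 genes, 12 windows in all, 6 of them of Sgk1. The half-site of steroid hormone receptors, AGAACA read on either strand, is in 19.0% of all 32851 such windows and in 3 of the 12, all of them Sgk1 windows. The full inverted repeat of this half-site, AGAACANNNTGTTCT, which glucocorticoid and mineralocorticoid receptors are known to bind as a dimer and which contains a half-site on each strand, is in 3 of the 32851 windows (0.00913%). One of the 3 is an Sgk1 window, at chr10:21993640-21993939 (GRCm38, plus strand), where the repeat lies 189 bases before the start of its own transcript and 965 bases before the last annotated Sgk1 start. The sequences below are the window with the repeat, in capitals, and the window of the last start at chr10:21994416-21994715 (plus strand), where capitals mark a TATAAA motif, which is in 13.6% of all windows on either strand. A match is a description of the letters and not of binding in these kidneys.

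Sgk1 window with the inverted repeat: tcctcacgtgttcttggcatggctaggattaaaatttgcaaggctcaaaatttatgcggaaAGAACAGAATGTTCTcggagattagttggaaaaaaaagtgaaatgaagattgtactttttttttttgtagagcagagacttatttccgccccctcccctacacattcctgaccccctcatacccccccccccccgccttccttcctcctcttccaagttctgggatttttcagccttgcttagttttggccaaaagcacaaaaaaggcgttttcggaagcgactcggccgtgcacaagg
Sgk1 window of the last start: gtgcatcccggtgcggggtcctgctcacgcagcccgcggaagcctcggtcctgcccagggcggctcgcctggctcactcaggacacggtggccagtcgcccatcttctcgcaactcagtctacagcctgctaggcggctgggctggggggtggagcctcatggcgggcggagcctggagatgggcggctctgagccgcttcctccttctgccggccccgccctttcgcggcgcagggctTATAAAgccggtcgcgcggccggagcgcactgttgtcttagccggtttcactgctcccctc

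The genes whose levels followed Sgk1 most closely across kidneys were sought among the 12779 other tested genes, by Pearson's r of log2 CPM with each group's mean removed (22 kidneys). They were Glul (r = 0.82, Spearman's rho = 0.76), Tsc22d3 (r = 0.81, rho = 0.78), Hipk1 (r = 0.78, rho = 0.77), Osbpl9 (r = 0.77, rho = 0.76) and Ube2g2 (r = 0.77, rho = 0.63). These genes were picked as the 5 highest and are given as a description without a test. Without the 2 kidneys farthest from the median of Sgk1, r was 0.74 for Glul and 0.77 for Tsc22d3. Glul encodes glutamine synthetase. Tsc22d3 encodes GILZ, a glucocorticoid- and aldosterone-induced protein that takes part in ENaC regulation.

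Tsc22d3 was at 45.4 to 131 CPM in sham kidneys (median 82.2 CPM), 57.9 to 288 CPM at 5d (median 99.8 CPM) and 48.6 to 207 CPM at 28d post-MI (median 117 CPM). The kidney with the highest Sgk1 level, replicate 9 of the 5d group, also had the highest Tsc22d3 level, and at 28d replicates 7 and 3 were the highest kidneys for both genes. Within groups the r of Sgk1 with Tsc22d3 was 0.45 in sham kidneys, 0.90 at 5d and 0.95 at 28d post-MI, and that with Glul was 0.69, 0.85 and 0.82. Of the 46 tested genes of the wider pathway list, 6 (13.0%) had an r of at least 0.5 with Sgk1, against 2.79% of all 12779 genes. Besides Tsc22d3 they were Fkbp5, a glucocorticoid-induced chaperone of steroid receptors (r = 0.71, rank 18 of 12779), Hsp90aa1, an HSP90 gene (0.62), Atp1b1, a subunit of the sodium pump (0.60), Usp2, a deubiquitinase that acts on ENaC (0.54), and Mlst8, a subunit of the kinase complex that activates SGK1 (0.53). Other listed partners of steroid receptors lay below 0.5, namely Hsp90ab1 (0.40), Dot1l (0.40), Per1 (0.34), Fkbp4 (0.26), Mllt3 (0.23) and the glucocorticoid receptor gene Nr3c1 (-0.24). All of these were named after their values were seen. Without the 2 kidneys farthest from the median of Sgk1, 5 of the 46 and 3.15% of all 12779 genes reached an r of 0.5. Mlst8 then fell to 0.36. Within groups the r of Mlst8 was -0.22 in sham kidneys, 0.84 at 5d and 0.01 at 28d post-MI. Fkbp5 (0.52), Hsp90aa1 (0.55), Atp1b1 (0.53) and Usp2 (0.54) stayed above 0.5 without the 2 kidneys, and their r was above 0 in each group. One of the 3 Tsc22d3 windows holds a half-site and none of them holds the inverted repeat. The windows at hand for Glul, Hipk1, Osbpl9, Fkbp5 and Per1 hold neither motif. A half-site is in 19.0% of all windows.

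**Figure D4:**
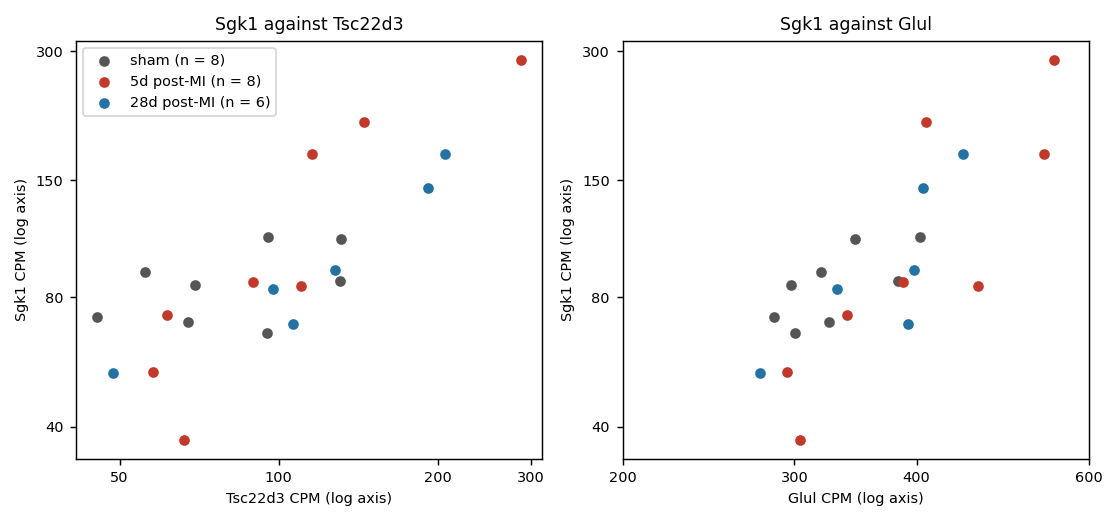
Sgk1 CPM (y axis, log scale) against Tsc22d3 CPM (left) and Glul CPM (right, both x axes on a log scale) in each kidney, coloured by group. The 5d kidney with 286 CPM of Sgk1 has 288 CPM of Tsc22d3, and the sham kidneys stay at or below 111 CPM of Sgk1.

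Within the system, pairs of genes were compared in the same way. Of 45 pairs 36 had an r above 0, against 49.9% of all pairs of tested genes, and the median r was 0.22 against -0.0009. An r of at least 0.5 was found in 3 pairs (6.67%), against 1.72% of all pairs. These were Scnn1a with Hsd11b2 (r = 0.63, rho = 0.66, permutation p = 0.00558), Hsd11b2 with Slc12a3 (r = 0.62, rho = 0.40, permutation p = 0.00671) and Scnn1a with Sgk1 (r = 0.58, rho = 0.57, permutation p = 0.0138). By permutation within groups and adjusted over the 45 pairs, 0 pairs were past 0.05, the lowest adjusted p being 0.151 for r and 0.124 for rho, and 9 of the 45 pairs had an unadjusted permutation p under 0.05. Of the 127700 pairs of 1 of the 10 genes with a tested gene outside the system, 6.09% had such a p (10000 permutations). The 45 pairs share their genes and kidneys and are not independent of each other. Without the 2 kidneys farthest from the median of Hsd11b2, r was 0.70 for Scnn1a with Hsd11b2 and 0.28 for Hsd11b2 with Slc12a3, so that the second rests on those kidneys. Among the 3 ENaC subunit genes r was low (0.09 for Scnn1a with Scnn1b, 0.22 for Scnn1a with Scnn1g and -0.06 for Scnn1b with Scnn1g), and the counting error of Scnn1b and Scnn1g is as large as their spread. With the receptor gene Nr3c2 the r of Sgk1 was 0.22, and with Nedd4l it was 0.50 (permutation p = 0.0381, adjusted p = 0.239).

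**Figure D5:**
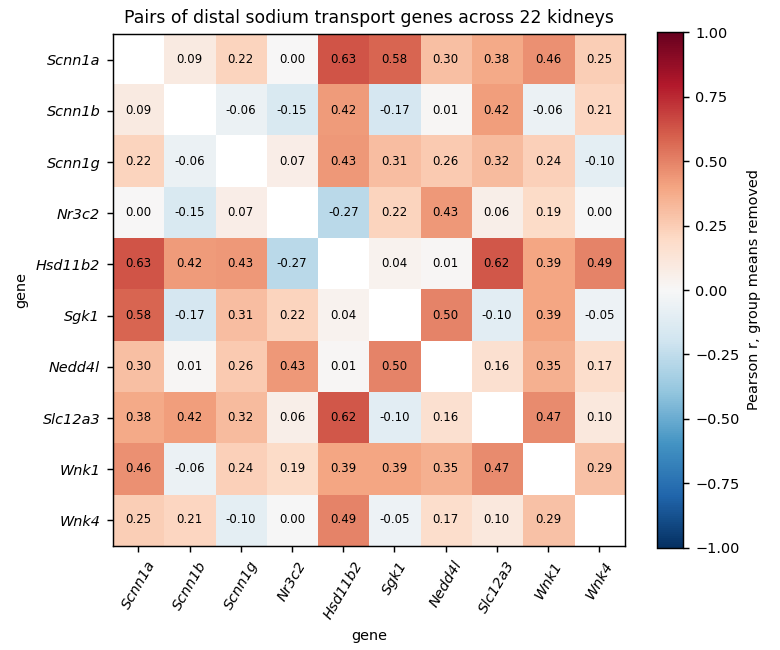
Pearson's r of log2 CPM with group means removed (colour and printed value) for each pair of the 10 genes (both axes) across 22 kidneys. The darkest fields are Scnn1a with Hsd11b2 (0.63), Hsd11b2 with Slc12a3 (0.62) and Scnn1a with Sgk1 (0.58).

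The genes nearest to Slc12a3 were Ces2g (r = 0.77), Tnrc18 (0.76), Fam184a (0.76), Clmn (0.74) and Dido1 (0.71), and those nearest to Scnn1g were Rbm6 (0.78), Defb1 (0.73), Zfp46 (0.72), Chka (0.71) and Zfp445 (0.71). Defb1, a defensin gene of the distal nephron, kept an r of 0.72 with Scnn1g when the 2 kidneys farthest from the median of Scnn1g were left out, and Dido1 an r of 0.70 with Slc12a3, while Fam184a fell to 0.46.

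The wider pathway was followed by a list of 47 further genes, of which 46 were tested. At 5d post-MI 0 of 46 were called by edgeR, DESeq2 or limma's voom, and 7 had an unadjusted p under 0.05, 4 of them higher and 3 lower, against 3.92% and 3.97% of all tested genes. Among the higher ones were Kcnj1, the apical potassium channel ROMK (log2 fold change 0.20, adjusted p = 0.564 by edgeR), and Prss8, the ENaC-activating protease prostasin (0.13, adjusted p = 0.573). Fkbp5, named after its values were seen, had the largest log2 fold change of the list (0.69, adjusted p = 0.587 by edgeR). It was at 26.7 to 66.6 CPM in sham kidneys and 37.8 to 188 CPM at 5d, highest in replicate 9, with 5 of 8 kidneys above every sham kidney. The 3 lower ones were Hsp90ab1 (-0.17, adjusted p = 0.564 by edgeR), Slc8a1, the basolateral sodium calcium exchanger (-0.31, adjusted p = 0.587), and Hsp90aa1 (-0.21, adjusted p = 0.59). The median log2 fold change of the list was 0.04.

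At 28d post-MI 0 of 46 were called by edgeR or limma's voom, and 5 had an unadjusted p under 0.05, all of them higher, against 4.45% of all tested genes higher and 4.23% lower. Fkbp4, the immunophilin that carries steroid receptors with HSP90, had the lowest p (log2 fold change 0.30, SE 0.07, adjusted p = 0.0894 by edgeR), and it was called in 5 of 37 alternatives, DESeq2 among them. Its level was 98.0 to 138 CPM in sham kidneys and 110 to 164 CPM at 28d. Kcnj1 followed with 0.29 (adjusted p = 0.331 by edgeR) and Hsp90aa1 with 0.27 (adjusted p = 0.415). Kcnj1 was at 78.2 to 107 CPM in sham kidneys, 96.5 to 149 CPM at 5d and 99.1 to 133 CPM at 28d post-MI, with 5 of 8 and 4 of 6 kidneys above every sham kidney. The lowest p among the lower ones were those of Slc26a4, the chloride bicarbonate exchanger pendrin (-0.14, adjusted p = 0.74 by edgeR), Nedd4 (-0.07, adjusted p = 0.764) and Klhl2 (-0.11, adjusted p = 0.802).

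Between 28d and 5d post-MI 1 of 46 was called by edgeR, Hsp90aa1, where 0.415% of all tested genes were called. At an unadjusted p under 0.05, 4 of 46 were higher and 2 lower, against 5.03% and 4.01% of all tested genes. The level of Hsp90aa1, which encodes an inducible form of the HSP90 chaperone that holds steroid receptors ready to bind hormone, was 121 to 177 CPM at 5d (median 139 CPM) and 146 to 249 CPM at 28d (median 196 CPM), against 145 to 171 CPM in sham kidneys. The log2 fold change was 0.47 (SE 0.099), adjusted p = 0.0249 by edgeR, and 3 of the 6 kidneys at 28d lay above every 5d kidney. Over 37 alternatives the log2 fold change stayed between 0.40 and 0.55, and the call was lost in 11 of them, with adjusted p up to 0.158, and among these were the fits without 5d replicate 2, 3, 5 or 8 and without 28d replicate 2, 3 or 7. Fkbp4 (0.28, adjusted p = 0.058 by edgeR) and Hsp90ab1 (0.27, adjusted p = 0.169) followed, and Cab39 (-0.18), Spint2 (-0.12) and Nedd4 (-0.08) had the lowest p among the lower ones, with adjusted p of 0.535, 0.542 and 0.659. Immediate early genes moved with this comparison too, with a summed level of 10 genes of 183 to 857 CPM at 5d and 1219 to 2917 CPM at 28d. In sham kidneys this sum was 793 to 1840 CPM, so that the 5d group was the low one (medians of 1470, 543 and 1713 CPM in the sham, 5d and 28d groups). The part of these genes in the Hsp90aa1 difference was not tested.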

How the data were processed

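Kidney RNA of 24 mice was sequenced from the 3′ ends of mRNA (MACE) with unique molecular identifiers. The deposited values are the authors' whole-number counts per gene (56941 identifiers), without normalization, and the deposited values that the authors call tpm are CPM, which were used for a check alone. The authors' processing notes name cutadapt, FastQC, Bowtie2, HTSeq, DESeq2 and mm39, whereas the paper states mm10; versions and the strand setting are not given in the sources used here, and coordinates are from GENCODE M21 and RefSeq on GRCm38. Of 48 value columns 4 were not used, since the columns of 1 kidney at 5d and 1 at 28d share a name.

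Genes with enough counts (edgeR 4.0.16, filterByExpr, minimum 10) were normalized by TMM and fitted by the robust quasi-likelihood model with 3 groups and no covariate in R 4.3.3, and called at an adjusted p under 0.05 over all 12780 genes. The scripts were tested on simulated data. Intervals are the estimate with the t quantile at 95%. Log2 CPM used a prior count of 2, and correlations 100000 permutations within groups (Python 3.11.15, numpy 2.4.6, scipy 1.17.1, matplotlib 3.10.9). Alternatives used DESeq2 1.42.0, limma 3.58.1, other scalings and filters, marker scores as covariates and each kidney left out. Within groups, no pair of kidneys differed by as little as sampling noise (chi-squared per degree of freedom from 1.69 to 7.21 over 71 pairs). By the paper each kidney came from a separate mouse. The 10 genes, the pathway list and the marker lists were chosen with earlier results of these data known. Named are the 10 genes, the 3 genes of the pathway list with the lowest p in each direction of each contrast, and the 5 genes most like Slc12a3, Scnn1g and Sgk1. Pathway genes with an r of at least 0.5 with Sgk1, those set beside them and single marker genes were named after their values were seen. One gene that the rule names in the pathway list is not reported here.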

Additional observations from a re-analysis of the deposited data

Results flagged for a closer look

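Among the 30 sets of values, 10 genes in 3 groups, 2 held a kidney far from the others by Dixon's test, and chance alone gives about 1 in 20. Scnn1b in replicate 2 of the 28d group was at 53.0 CPM, with the next kidney at 43.6 CPM. Hsd11b2 in replicate 8 of the sham group was at 188 CPM, with the next kidney at 169 CPM. The change of Hsp90aa1 since sham differed between the times, with a log2 fold change of 0.47 at 28d against 5d post-MI (edgeR, adjusted p = 0.0249).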

How the results depend on the processing

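Depth limits Nr3c2 most, with 11 to 31 counts in a kidney. Of the log2 fold changes of the 10 genes under the alternatives, 1072 kept their direction and side of the threshold, 34 changed sign, all of them of small and uncalled values, and 1 passed the threshold, Nedd4l at 5d without 5d replicate 5. The cause was not tested for any of them. Nr3c2 was not tested with a minimum of 50 counts.

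Signs that changed were those of Scnn1b at 5d with the proximal tubule score as covariate (0.014), of Scnn1b (-0.012), Slc12a3 (-0.016) and Wnk1 (-0.0039) at 28d with library size alone, and of Slc12a3 at 28d with the adrenal cortex score (-0.000245) or the adipocyte score (-0.00958) as covariate. Between 28d and 5d they were those of Wnk1 with library size alone (-0.014), of Hsd11b2 (-0.036) and Wnk1 (-0.028) with the distal score, of Scnn1b with the proximal tubule score (-0.011), and of Wnk1 without the 3 kidneys with adrenal cortex genes (-0.013), an alternative chosen after seeing the data.

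With each kidney left out in turn, ranges that crossed 0 at 5d were -0.057 to 0.0048 for Scnn1b and -0.0034 to 0.047 for Wnk1. At 28d they were -0.045 to 0.058 for Scnn1b and -0.0061 to 0.047 for Slc12a3. Between the times they were -0.059 to 0.065 for Scnn1a, -0.022 to 0.079 for Scnn1b, -0.014 to 0.083 for Hsd11b2, -0.51 to 0.021 for Sgk1, -0.065 to 0.0032 for Slc12a3 and -0.012 to 0.038 for Wnk1.

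The number of the 10 genes called at 5d was 0 to 1 with a kidney left out. The number called in the pathway list at 28d against sham was 0, but 3 without a count filter, 1 by DESeq2 and 0 to 1 with a kidney left out, the 1 being Fkbp4 without sham replicate 8 or 28d replicate 1. Between 28d and 5d it was 1, but 3 without a count filter, 2 by DESeq2 with all kidneys or with the 2 groups alone, 0 by edgeR with the 2 groups alone, with the distal or the proximal tubule score, or without the 3 kidneys with adrenal cortex genes, and 0 to 3 with a kidney left out. Of pairs of genes 0 were past the threshold, but 5 when group means were not removed, and 0 to 1 with a kidney left out, the 1 being Scnn1a with Hsd11b2 without 5d replicate 1 or 7.

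The labels number the kidneys in each group, and they were not taken as pairs, since not every pair with the same number had a correlation over 0.1. Over 18 such pairs, correlations of their deviations over 2000 genes were between -0.25 and 0.18, 8 of them over 0.1, with a median of 0.077 against -0.016 for kidneys of different numbers, and 2 of 21 kidneys correlated best with their own number. With the replicate number as a block, 0 of the 10 genes were called in each comparison, and the pathway list had 1 call at 28d against sham and 2 between the times. Under the block Sgk1 differed from sham at 5d by 0.056 and between the times by 0.093, and Scnn1a between the times by 0.064.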
